A study of Homo sapiens with 27 samples.

Results

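The 10 genes described here make, cut, bind or link hyaluronan: the synthases HAS2 and HAS3, the hyaluronidases HYAL1, HYAL2 and HYAL3, the degradation proteins CEMIP and CEMIP2 (also called TMEM2), the receptor CD44, the link protein HAPLN1 and the proteoglycan VCAN. They are 10 of the 58721 genes in the count table, and all 10 were among the 25199 genes that passed the filter on low counts. The group was chosen by function and by measured values, since it was picked because CEMIP fell the most of these genes with drug and HAPLN1 with TADA2B knockout. CEMIP under drug and HAPLN1 under knockout are therefore given as descriptions without a test, and so is the difference between populations in the drug response of either gene.

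Hyaluronan is a long unbranched sugar chain that synthases in the cell membrane extrude into the space around the cell. Hyaluronidases and the CEMIP proteins cut it into fragments, and cells take up fragments through receptors such as CD44, which also ties the chain to the cytoskeleton. Outside the cell, proteoglycans such as versican hang on the chain and link proteins such as HAPLN1 lock them in place, and tumours of the skin and other tissues often carry a remodelled hyaluronan coat.

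RNA was sequenced from A375 cells, an established human melanoma line that carries an activating BRAF mutation, in 9 groups of 3 libraries. TADA2B knockout cells made with guide 2, TADA2B knockout cells made with guide 1 and cells with a non-targeting control guide against GFP were each exposed for 24 h to 1 µM vemurafenib, an inhibitor of mutant BRAF, to 20 nM trametinib, an inhibitor of the next kinases MEK1 and MEK2, or to the solvent DMSO. TADA2B encodes an adaptor of the SAGA histone acetyltransferase complex. All 9 groups share the parental line, and the labels do not call the knockout populations clones. Separate cultures are not stated for the 3 libraries of each group, so the p-values reflect library-to-library spread, which may be technical.

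Levels are CPM (counts scaled to the library total, after TMM normalisation) and the error after a mean is the SD of 3 libraries. Log2 fold changes carry their standard error after the sign ±, a gene was called at an adjusted p under 0.05, and every adjusted p is from edgeR's quasi-likelihood test with Benjamini-Hochberg adjustment over all 25199 genes. The libraries held 67502300 to 92513726 counts each. In DMSO, TADA2B transcript was kept in knockout cells, at 28.6 ± 1.21 CPM with guide 2 and 30.4 ± 0.773 CPM with guide 1, against 31.2 ± 0.931 CPM in control cells (log2 -0.08 ± 0.037, adjusted p = 0.0629), and a count per gene does not show an edited sequence. With drug TADA2B rose in control cells, by log2 0.49 ± 0.042 in vemurafenib and 0.41 ± 0.042 in trametinib. In either drug it was called lower in knockout than in control cells. DUSP6, a target of ERK signalling, averaged 13.8 ± 0.679 CPM in vemurafenib and 1.05 ± 0.0901 CPM in trametinib, against 147 ± 2.66 CPM in DMSO in control cells. SPRY4, another target of ERK signalling, averaged 4.3 ± 0.116 CPM in vemurafenib and 1.64 ± 0.177 CPM in trametinib, against 443 ± 3.31 CPM in DMSO in control cells. The melanoma markers SOX10 and MITF were present in every group, and the summed level of the 8 melanocyte markers was 364 to 594 CPM in knockout cells in DMSO, against 1038 to 1111 CPM in control cells. In control cells that sum was 2270 to 2404 CPM with drug. DCT rose by far the most, by log2 10.04 ± 0.057 in vemurafenib and 10.12 ± 0.057 in trametinib. SOX10 rose by only 0.31 ± 0.036 and 0.24 ± 0.036 in the same drugs. S100A1 was not called in either, and S100B was higher in vemurafenib and lower in trametinib. Of the 8 markers, vemurafenib raised 7 (67.3% of all genes called) and trametinib raised 6 (69.0%). For knockout in DMSO the melanocyte markers were mixed: PMEL (log2 0.38 ± 0.13) and MLANA (log2 0.73 ± 0.16) were called higher. SOX10, MITF, DCT, S100B and S100A1 were called lower, and TYR was not called. Summed fibroblast markers were 36 to 47.2 CPM in knockout cells in DMSO, against 16.2 to 17.0 CPM in control cells. Of these, COL1A1 and LUM were called higher, COL1A2 was called lower, and DCN and PDGFRA were not called. The 4 keratinocyte markers summed to 55.0 to 63.6 CPM in knockout cells in DMSO, against 53.3 to 58.5 CPM in control cells, most of it KRT10, with KRT1 at 0 in every library. The 4 leukocyte markers summed to 24.6 to 35.9 CPM in knockout cells in DMSO, against 16.6 to 17.1 CPM in control cells, nearly all of it LYZ, with CD3E of T cells at 0.0889 CPM or less in every library. In control cells PTPRC of leukocytes averaged 1.6 ± 0.236 CPM in vemurafenib and 2.67 ± 0.217 CPM in trametinib, against 0.0376 ± 0.0326 CPM in DMSO. The 4 endothelial markers summed to 7.91 to 8.97 CPM in knockout cells in DMSO, against 16.1 to 16.6 CPM in control cells. Only KDR of them was called lower (log2 -1.87 ± 0.082). PECAM1 (log2 0.65 ± 0.15) and CDH5 (log2 1.67 ± 0.36) were called higher, and VWF was not called. Mitochondrial genes took 3.13% to 3.60% of counts in knockout cells with drug, 2.33% to 2.74% in knockout cells in DMSO, 2.05% to 2.38% in control cells with drug and 1.58% to 1.68% in control cells in DMSO. The part of these markers and shares in the results was not tested. In such bulk samples, fewer cells that express a gene and less RNA per cell cannot be told apart.

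In control cells, both drugs lowered most of the hyaluronan genes and raised CD44 and HYAL3. Vemurafenib changed 9 of the 10 members, with 2 higher and 7 lower, where 67.3% of all genes tested were called. Trametinib changed 8 of the 10, with 2 higher and 6 lower, where 69.0% of all genes tested were called. These shares count calls in either direction, and with so many genes called they say little by themselves. The members' median log2 fold change was -0.84 in vemurafenib and -1.06 in trametinib, against 0.06 for all genes in either drug. In knockout cells, taken as the mean of both guides, vemurafenib changed 9 members, 2 higher and 7 lower, where 69.1% of all genes were called. Trametinib in knockout cells changed 9 members, 1 higher and 8 lower, where 71.4% of all genes were called. These counts and medians include CEMIP, whose fall under drug chose the group.

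**Figure D1:**
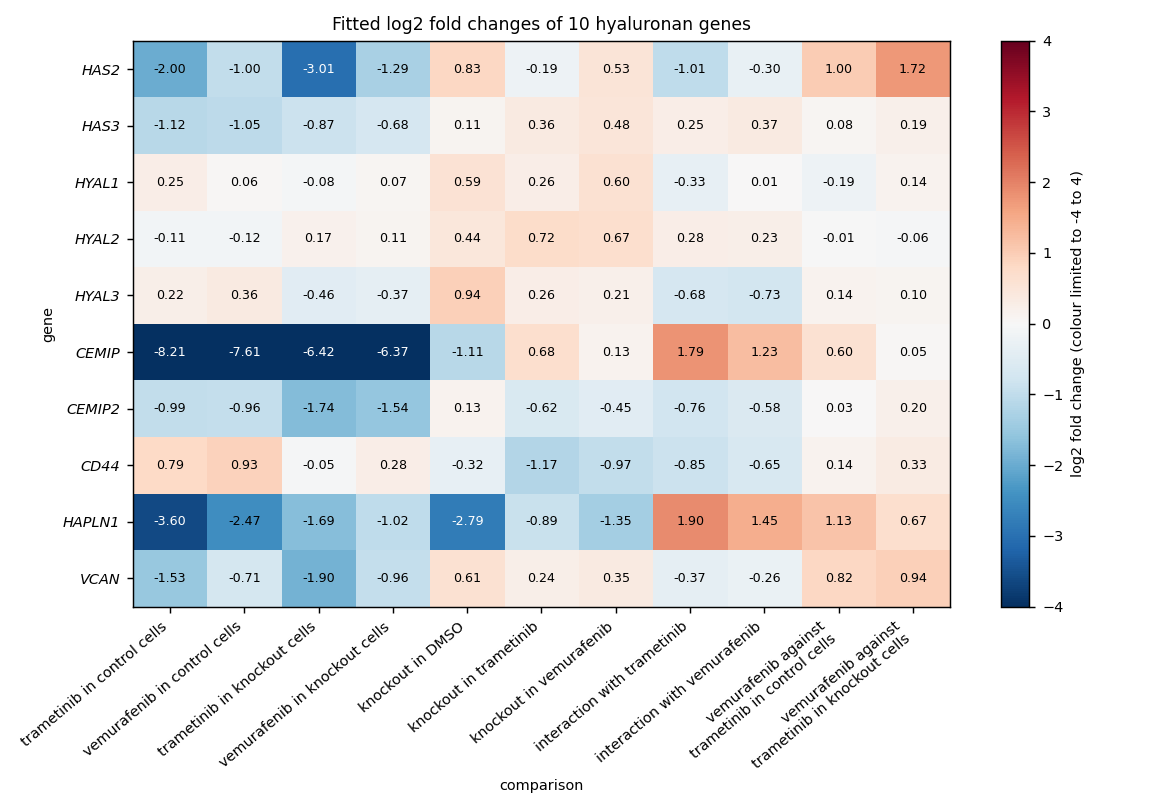
Fitted log2 fold changes of the 10 hyaluronan genes (rows) in 11 comparisons (columns), with colour limited to -4 to 4 and the value printed in each cell. The interaction columns subtract the drug response of control cells, so a negative value is a response lower in knockout cells. CEMIP holds the lowest values under drug, down to -8.21, and HAPLN1 the lowest under knockout, down to -2.79.

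Knockout without drug was followed by a different pattern, in which HAS2, CEMIP2, the 3 hyaluronidases and VCAN were higher for the mean of both guides and CEMIP, HAPLN1 and CD44 lower. In DMSO, knockout changed 9 of the 10 members, 6 higher and 3 lower, where 57.9% of all genes were called. In trametinib it changed 8 members, 5 higher and 3 lower, where 55.9% of all genes were called. In vemurafenib it changed 8 members, 5 higher and 3 lower, where 55.6% of all genes were called. In either drug the 3 lower members were CEMIP2, CD44 and HAPLN1, and HAS3, HYAL2, HYAL3 and VCAN were among the higher ones. The shares beside these counts join both directions. HAPLN1, which helped choose the group, is in each count and in each median that follows. The median log2 fold change of the members was 0.29 in DMSO, 0.25 in trametinib and 0.28 in vemurafenib, against values between -0.02 and 0 for all genes. By guide, the median in DMSO was 0.16 with guide 2 and 0.48 with guide 1. Guide 2 in DMSO had 4 members called higher and 4 lower, where 13838 of 25199 genes were called. Guide 1 had 7 higher and 3 lower, where 13104 were called. With guide 2, CEMIP2 was lower and HAS2 was not called.

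**Figure D2:**
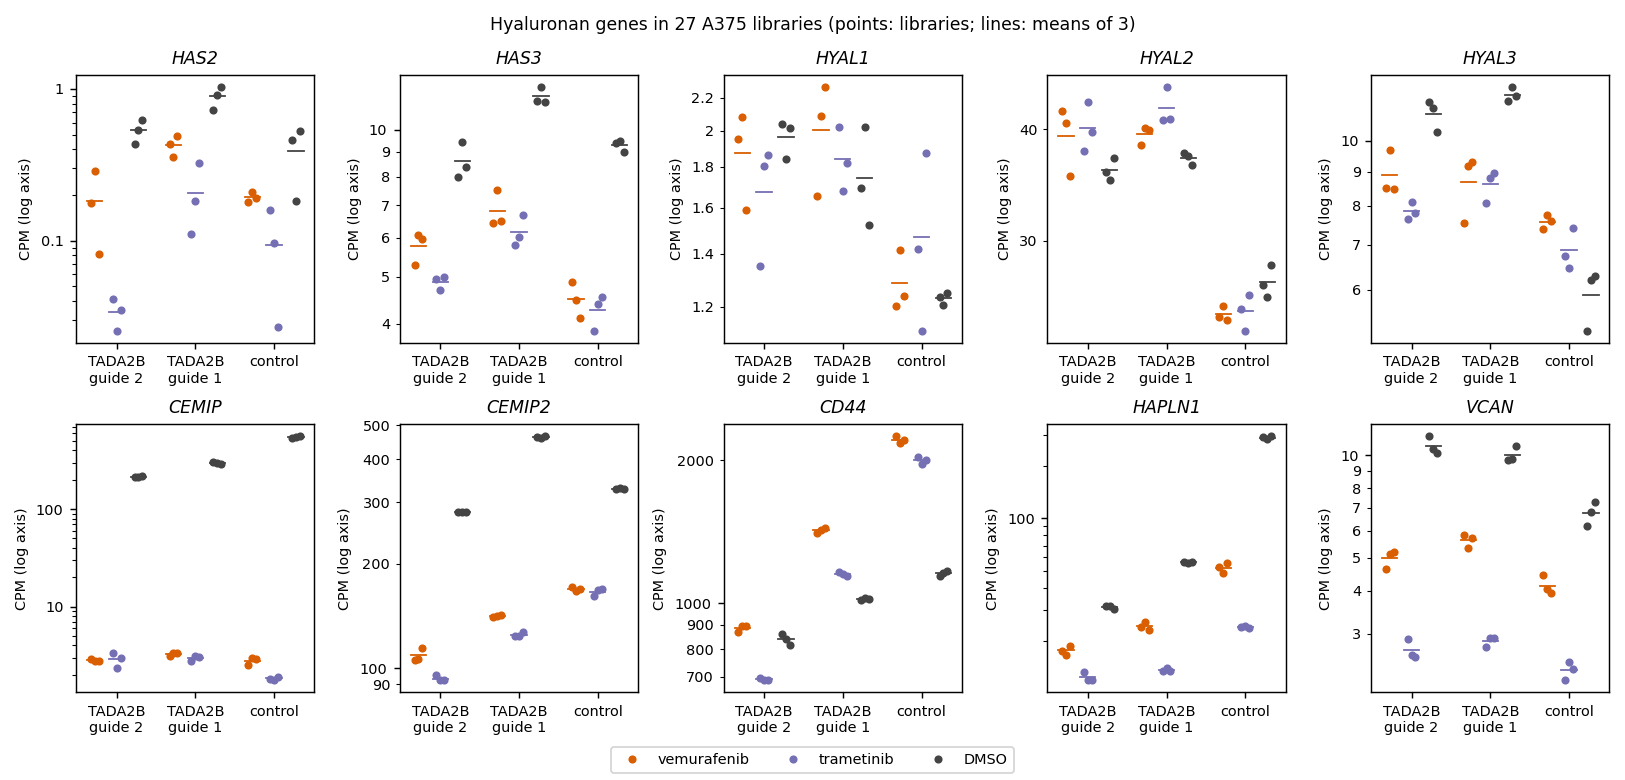
CPM of each hyaluronan gene (log axis) in every library, by population on the horizontal axis and by treatment in colour; points are libraries and lines the means of 3. The DMSO libraries of CEMIP sit between 213 and 555 CPM and all its drug libraries between 1.76 and 3.36 CPM.

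Ranked per kilobase of exon in control cells in DMSO, CD44 was highest at 116 CPM per kb, followed by CEMIP at 71.2, HAPLN1 at 41.7 and CEMIP2 at 34.1 CPM per kb. HYAL2 at 5.93, HYAL3 at 2.91 and HAS3 at 1.76 CPM per kb came next, and VCAN at 0.456, HYAL1 at 0.393 and HAS2 at 0.0931 CPM per kb were lowest. In this group the libraries of neighbours in the order did not overlap. With drug the order changed most for CEMIP, which stood at 0.366 CPM per kb in vemurafenib and 0.241 CPM per kb in trametinib, below HYAL1 at 0.411 and 0.470 CPM per kb in the same drugs. CEMIP and HYAL1 overlapped between libraries in vemurafenib, and HAPLN1 at 3.44 and HYAL3 at 3.39 CPM per kb overlapped in trametinib.

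Both synthases among the members fell with drug. HAS2, the membrane enzyme that makes very long chains, lies on chromosome 8 and had between 2 and 81 counts per library. In control cells its counts were 15, 15 and 15 in vemurafenib and 13, 8 and 2 in trametinib, against 33, 14 and 37 in DMSO. Trametinib libraries all lay below DMSO libraries (log2 -2.0 ± 0.45, adjusted p = 0.000119), while one DMSO library overlapped the vemurafenib libraries (log2 -1.0 ± 0.41, adjusted p = 0.0279). The call in vemurafenib was lost when replicate 1 or 3 of either group was left out, with an adjusted p of up to 0.17. In guide 2 cells the counts were 14, 23 and 6 in vemurafenib and 3, 2 and 3 in trametinib, against 33, 44 and 42 in DMSO. In guide 1 cells they were 31, 27 and 42 in vemurafenib and 10, 18 and 28 in trametinib, against 54, 69 and 81 in DMSO. Both knockout populations thus had fewer HAS2 counts in every drug library than in any of their own DMSO libraries, by log2 -1.29 ± 0.26, adjusted p = 2.52e-05 in vemurafenib and -3.01 ± 0.32, adjusted p = 1.05e-11 in trametinib for their mean.

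HAS2 also differed between the knockout populations. In guide 1 cells HAS2 was above its control level, by log2 1.2 ± 0.35, adjusted p = 0.00342, in DMSO, and by 1.14 ± 0.4, adjusted p = 0.0159, in vemurafenib. Guide 2 cells did not pass the test against control cells in either (intervals of 2 standard errors -0.27 to 1.19 in DMSO and -0.95 to 0.82 in vemurafenib). The mean of both guides was called in DMSO (log2 0.83 ± 0.32, adjusted p = 0.0234), which failed when replicate 2 of the control DMSO group was dropped (adjusted p = 0.24). Set against guide 1 directly, guide 2 was lower in trametinib (log2 -2.55 ± 0.58, adjusted p = 0.000769) and in vemurafenib (log2 -1.21 ± 0.4, adjusted p = 0.0317). The vemurafenib call was lost without replicate 1 or 3 of either guide, with an adjusted p of up to 0.18.

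HAS3, the synthase that makes shorter chains, spans chr16:69105564-69118719 on the plus strand of hg38 (GENCODE 29, as are all coordinates of genes here). Control cells had 4.87, 4.49 and 4.11 CPM in vemurafenib and 3.88, 4.38 and 4.55 CPM in trametinib, against 9.39, 9.47 and 9.01 CPM in DMSO. Guide 2 cells had 5.27, 6.09 and 5.96 CPM in vemurafenib and 4.94, 4.69 and 4.99 CPM in trametinib, against 7.99, 9.44 and 8.38 CPM in DMSO. Guide 1 cells had 6.43, 7.51 and 6.51 CPM in vemurafenib and 5.8, 6.01 and 6.68 CPM in trametinib, against 11.5, 12.2 and 11.4 CPM in DMSO. In all 3 populations every drug library lay below every DMSO library. The fall in control cells was 2.07-fold in vemurafenib (log2 -1.05 ± 0.086, adjusted p = 2.63e-15) and 2.18-fold in trametinib (log2 -1.12 ± 0.086, adjusted p = 2.57e-16). In knockout cells it was 1.6-fold in vemurafenib (log2 -0.68 ± 0.058, adjusted p = 1.27e-14) and 1.83-fold in trametinib (log2 -0.87 ± 0.058, adjusted p = 2.12e-18). The fall was smaller in knockout cells than in control cells by log2 0.37 ± 0.1, adjusted p = 0.0029 in vemurafenib. In trametinib the same difference was 0.25 ± 0.1, adjusted p = 0.0463, with adjusted p-values between 0.022 and 0.2 when single libraries were left out. It did not hold without replicates 1 or 2 of control cells in DMSO, replicates 1 or 2 of control cells in trametinib, replicate 2 of control cells in vemurafenib, replicates 1 or 3 of guide 1 cells in DMSO, replicate 3 of guide 1 cells in trametinib, replicates 1 or 3 of guide 2 cells in DMSO or replicates 1 or 3 of guide 2 cells in trametinib. With guide 1 alone the difference in response from control cells was not called in either drug. The fall in vemurafenib was log2 -0.58 ± 0.084 with guide 2 and -0.78 ± 0.081 with guide 1. In trametinib it was -0.82 ± 0.085 with guide 2 and -0.92 ± 0.08 with guide 1. Guide 2 was below guide 1 in DMSO (log2 -0.44 ± 0.079, adjusted p = 3.78e-05), and only guide 1 stood above control cells there (log2 0.33 ± 0.079, adjusted p = 0.000377), while the interval of guide 2 was -0.27 to 0.05.

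CEMIP binds hyaluronan and is needed for its breakdown by skin fibroblasts; it spans chr15:80779343-80951776 on the plus strand. In control cells CEMIP had 2.5, 2.97 and 2.89 CPM in vemurafenib and 1.83, 1.76 and 1.91 CPM in trametinib, against 531, 543 and 555 CPM in DMSO. In guide 2 cells it had 2.9, 2.8 and 2.74 CPM in vemurafenib and 3.36, 2.33 and 2.97 CPM in trametinib, against 215, 213 and 216 CPM in DMSO. In guide 1 cells it had 3.11, 3.35 and 3.33 CPM in vemurafenib and 2.79, 3.13 and 3.05 CPM in trametinib, against 302, 295 and 289.7 CPM in DMSO. All 18 drug libraries lay below all 9 DMSO libraries. As a description of the gene chosen for it, the fall was 195-fold in vemurafenib and 296-fold in trametinib in control cells, and 83-fold in vemurafenib and 85.8-fold in trametinib in knockout cells. On the log2 scale the fall was smaller in knockout cells by 1.23 ± 0.076 in vemurafenib and 1.79 ± 0.082 in trametinib, given without a test.

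The comparisons of CEMIP that the choice did not use were tested. In DMSO, knockout cells had less CEMIP than control cells, by 2.15-fold (log2 -1.11 ± 0.029, adjusted p = 1.2e-33). The fall was 2.53-fold with guide 2 and 1.84-fold with guide 1, and guide 2 was below guide 1 (log2 -0.46 ± 0.035, adjusted p = 8.62e-15). Under trametinib the direction was the other way, with knockout cells 1.6-fold above control cells (log2 0.68 ± 0.078, adjusted p = 2.2e-10), and no knockout library overlapped a control library. Under vemurafenib the mean of both guides was not called (log2 0.13 ± 0.072, adjusted p = 0.132), and guide 1 alone was (log2 0.23 ± 0.081, adjusted p = 0.0142). Vemurafenib left 1.52-fold more CEMIP than trametinib in control cells (log2 0.6 ± 0.091, adjusted p = 1.26e-06). In knockout cells the same contrast had an interval of -0.07 to 0.16, and the populations differed by -0.55 ± 0.11, given without a test.

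The start regions of CEMIP and HAS3 are shown because both genes fell with both drugs in every population and the windows before their RefSeq starts hold 27 and 0 bases of annotated exons. The HAS3 window lies inside the span of HAS3 given above, which begins at chr16:69105564, so it is not the region before the whole gene. Each is the 250 bases before the RefSeq start site on GRCh38.p14, plus strand, at chr15:80779120-80779369 for CEMIP and chr16:69107290-69107539 for HAS3, with motif matches in capitals.
CEMIP: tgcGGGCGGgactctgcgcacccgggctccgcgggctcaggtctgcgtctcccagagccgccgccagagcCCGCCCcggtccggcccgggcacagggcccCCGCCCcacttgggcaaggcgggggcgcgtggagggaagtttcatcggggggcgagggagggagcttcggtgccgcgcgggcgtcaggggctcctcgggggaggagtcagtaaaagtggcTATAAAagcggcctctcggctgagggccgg
HAS3: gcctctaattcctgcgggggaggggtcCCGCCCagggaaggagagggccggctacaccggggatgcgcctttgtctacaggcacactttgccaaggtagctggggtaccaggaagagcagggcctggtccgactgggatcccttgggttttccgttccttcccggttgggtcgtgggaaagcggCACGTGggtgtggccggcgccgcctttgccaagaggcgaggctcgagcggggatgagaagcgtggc
The capitals mark the TATA box TATAAA, the E-box CACGTG and the GC box GGGCGG on either strand. The CEMIP window holds 1 TATAAA, starting 30 bases before the RefSeq start site, and 3 GC boxes. The HAS3 window holds 1 GC box and 1 CACGTG, starting 66 bases before the start site.

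Promoter windows of 300 bases (250 before to 50 after the RefSeq start) were listed for 9 of the 10 members and for 27305 entries in all, and both strands were searched. TATAAA was in 12.0% of all windows and, of the 9 members, in CEMIP alone. GGGCGG was in 44.6% of all windows and in 7 of the 9, all but HYAL2 and HAPLN1. CACGTG was in 7.43% of all windows and in HAS3, and GGAATG, a TEAD motif, was in 14.0% and in HYAL2. None of the 9 windows held TGANTCA (AP-1, 7.76% of all windows), TGACGTCA (CRE, 1.98%), CCGGAAGT (ETS, 4.44%), TCATGTG (M-box, 2.99%), ACAATGG (SOX, 3.15%) or CCAAT (35.7%). No 2 of these motifs share a match in the printed windows. A single RefSeq start was taken per gene. The windows of HAS3, HYAL1, CEMIP2, CD44, HAPLN1 and VCAN lie inside the gene spans of GENCODE, and other start sites were not searched. A match or its absence describes these letters in these windows only.

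CEMIP2, a membrane protein related to CEMIP and described as a hyaluronidase at the cell surface, spans chr9:71683366-71816690 on the minus strand. It fell with drug, and the fall was larger in knockout cells than in control cells. In control cells there were 171, 167 and 169 CPM in vemurafenib and 161, 168 and 169 CPM in trametinib, against 328, 329.7 and 328 CPM in DMSO. With guide 2 there were 106, 106 and 115 CPM in vemurafenib and 95.6, 92.4 and 92.3 CPM in trametinib, against 282, 282 and 281 CPM in DMSO. With guide 1 there were 141, 141 and 143 CPM in vemurafenib and 123, 123 and 127 CPM in trametinib, against 462, 459.6 and 465 CPM in DMSO. Each population's drug libraries lay far below its DMSO libraries. The fall in control cells was 1.94-fold in vemurafenib (log2 -0.96 ± 0.028, adjusted p = 2.05e-32) and 1.98-fold in trametinib (log2 -0.99 ± 0.028, adjusted p = 5.35e-33). In knockout cells it was 2.9-fold in vemurafenib and 3.34-fold in trametinib, and the difference between populations was log2 -0.58 ± 0.034, adjusted p = 2.14e-19 in vemurafenib and -0.76 ± 0.035, adjusted p = 1.02e-23 in trametinib.

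The knockout populations went opposite ways for CEMIP2 in DMSO. Guide 2 cells were below control cells (log2 -0.22 ± 0.028, adjusted p = 1.65e-09) and guide 1 cells above them (log2 0.49 ± 0.028, adjusted p = 1.77e-20), so the called mean of both guides (log2 0.13 ± 0.024) describes neither. Guide 2 was below guide 1 in DMSO by log2 -0.72 ± 0.028, adjusted p = 3.34e-25. With drug both guides lay below control cells, by 1.55-fold for guide 2 and 1.19-fold for guide 1 in vemurafenib, and by 1.78-fold for guide 2 and 1.33-fold for guide 1 in trametinib.

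The 3 hyaluronidases sit side by side on chromosome 3, all on the minus strand: HYAL3 at chr3:50292831-50299468, HYAL1 at chr3:50299889-50312381 and HYAL2 at chr3:50317790-50322906. Each was higher in knockout than in control cells in DMSO, whichever guide was used. HYAL1, a lysosomal hyaluronidase, had 1.52 to 2.04 CPM in knockout cells and 1.21 to 1.25 CPM in control cells in DMSO (log2 0.59 ± 0.15, adjusted p = 0.000671), with no overlap. It did not pass the test for either drug, in control or in knockout cells, with intervals of -0.29 to 0.41 for vemurafenib and -0.09 to 0.6 for trametinib in control cells. Knockout cells had 1.59 to 2.27 CPM and control cells 1.2 to 1.42 CPM in vemurafenib (log2 0.6 ± 0.15, adjusted p = 0.000482), again with no overlap. In trametinib, knockout cells had 1.35 to 2.02 CPM and control cells 1.12 to 1.87 CPM, which overlapped (log2 0.26 ± 0.14, adjusted p = 0.117). That value passed the test when replicate 3 of the control trametinib group was dropped (adjusted p = 0.013).

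HYAL2, a hyaluronidase anchored at the cell surface, had 35.8, 35.1 and 37.1 CPM with guide 2 and 37.6, 37.3 and 36.5 CPM with guide 1 in DMSO, against 26.8, 26.0 and 28.1 CPM in control cells. The knockout libraries lay above every control library (log2 0.44 ± 0.045, adjusted p = 5.21e-12). The gap was wider in vemurafenib, with 35.4 to 41.9 CPM in knockout cells and 24.5 to 25.3 CPM in control cells (log2 0.67 ± 0.045, adjusted p = 6.6e-18). In trametinib knockout cells had 37.8 to 44.6 CPM and control cells 23.8 to 26.1 CPM (log2 0.72 ± 0.045, adjusted p = 3.87e-19). HYAL2 rose slightly with trametinib in knockout cells (log2 0.17 ± 0.035, adjusted p = 2.52e-05) and had a log2 value of -0.11 ± 0.052 in control cells (adjusted p = 0.0625), and the difference was 0.28 ± 0.063, adjusted p = 0.000218. For vemurafenib the difference was 0.23 ± 0.063, adjusted p = 0.00241, from a rise in knockout cells of 0.11 ± 0.035, adjusted p = 0.00545 and a fall in control cells of -0.12 ± 0.052, adjusted p = 0.0404. The rise was called with guide 2 (log2 0.13 ± 0.05, adjusted p = 0.0229) and not with guide 1 (log2 0.09 ± 0.05, adjusted p = 0.118). The fall in control cells failed the test when replicate 1 or 3 of the control DMSO or control vemurafenib group was dropped, with an adjusted p of up to 0.18. The exons of HYAL2 share 509 bases (11.2% of its exonic length) with TUSC2 on the same strand. How the counting treated reads there, which may have been left out of both genes, was not tested. TUSC2 was itself higher in knockout cells in DMSO (log2 0.36 ± 0.043, adjusted p = 1.01e-09).

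HYAL3, a hyaluronidase of low activity on its own, responded to the drugs in opposite directions in the populations. Control cells had 7.39, 7.75 and 7.6 CPM in vemurafenib and 6.75, 6.47 and 7.43 CPM in trametinib, against 5.22, 6.2 and 6.29 CPM in DMSO. Guide 2 cells had 8.51, 9.68 and 8.48 CPM in vemurafenib and 7.64, 8.12 and 7.81 CPM in trametinib, against 11.4, 11.2 and 10.3 CPM in DMSO. Guide 1 cells had 7.55, 9.17 and 9.31 CPM in vemurafenib and 8.08, 8.81 and 8.95 CPM in trametinib, against 11.5, 12.0 and 11.7 CPM in DMSO. In control cells all drug libraries lay above all DMSO libraries, and in either knockout population all lay below. The rise in control cells was log2 0.36 ± 0.083, adjusted p = 0.000155 in vemurafenib and 0.22 ± 0.083, adjusted p = 0.0177 in trametinib. The trametinib call needed replicate 1 of the control DMSO group and replicate 3 of the control trametinib group: it failed without either, with an adjusted p of up to 0.18. The fall in knockout cells was log2 -0.37 ± 0.054, adjusted p = 5.74e-08 in vemurafenib and -0.46 ± 0.054, adjusted p = 1.62e-10 in trametinib. The difference between populations was log2 -0.73 ± 0.099, adjusted p = 2.5e-08 in vemurafenib and -0.68 ± 0.099, adjusted p = 1.08e-07 in trametinib.

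The starting levels of HYAL3 differed as well: knockout cells had 1.92-fold more than control cells in DMSO (log2 0.94 ± 0.072, adjusted p = 4.64e-16), 1.16-fold more in vemurafenib (log2 0.21 ± 0.069, adjusted p = 0.00703) and 1.2-fold more in trametinib (log2 0.26 ± 0.07, adjusted p = 0.00134). The guides were not called against each other in any treatment, with intervals for guide 2 against guide 1 of -0.24 to 0.06 in DMSO, -0.12 to 0.19 in vemurafenib and -0.29 to 0.02 in trametinib. HYAL3 shares 248 exonic bases (12.2% of its length) with NAA80 and 43 with IFRD2, both on the same strand. NAA80, an enzyme that acetylates actin, was not called with either drug in control cells (log2 -0.08 ± 0.083 in vemurafenib and 0.08 ± 0.082 in trametinib) and was higher in knockout cells in DMSO by 0.25 ± 0.072, adjusted p = 0.00204. IFRD2 fell in control cells, by 3.26-fold in vemurafenib (log2 -1.7 ± 0.046, adjusted p = 7.44e-34) and 3.9-fold in trametinib (log2 -1.96 ± 0.047, adjusted p = 3.33e-36), and was lower in knockout cells in DMSO (log2 -0.32 ± 0.037, adjusted p = 2.76e-10).

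**Figure D3:**
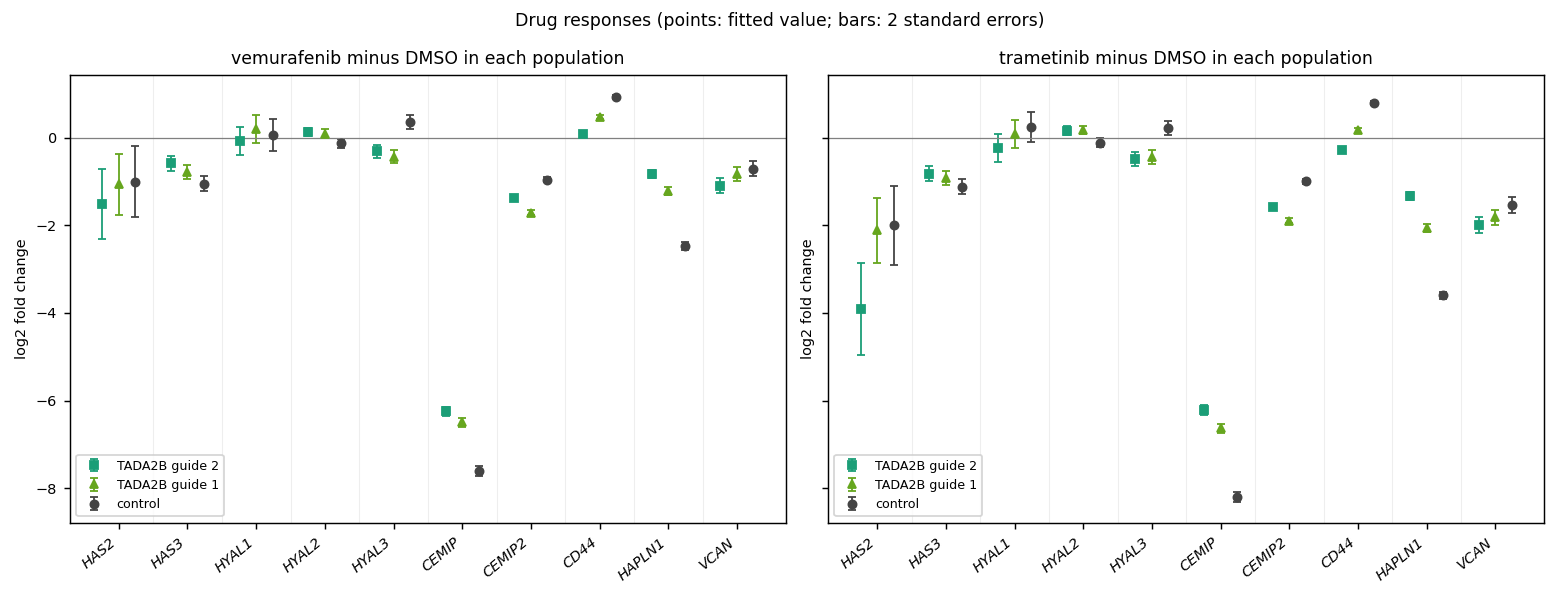
Fitted log2 fold change of drug against DMSO for each gene, by population and drug; points are fitted values and bars 2 standard errors. HYAL3 lies above 0 in control cells and below 0 with either guide, and CD44 in trametinib falls to -0.28 with guide 2.

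CD44, the main hyaluronan receptor of many cells, spans chr11:35138870-35232402 on the plus strand, and its rise with drug in control cells was reduced or turned round after knockout. Control cells had 2245, 2169 and 2205 CPM in vemurafenib and 2036, 1967 and 2007 CPM in trametinib, against 1140.0, 1156 and 1171 CPM in DMSO. Guide 2 cells had 870.1, 893 and 897 CPM in vemurafenib and 697, 688 and 688 CPM in trametinib, against 861, 841 and 818 CPM in DMSO. Guide 1 cells had 1405, 1428 and 1437 CPM in vemurafenib and 1162, 1153 and 1141 CPM in trametinib, against 1017, 1027 and 1019 CPM in DMSO. The libraries of vemurafenib, trametinib and DMSO did not overlap within any population, and guide 2 cells had their lowest libraries in trametinib. The rise in control cells was 1.91-fold in vemurafenib (log2 0.93 ± 0.025, adjusted p = 3.38e-34) and 1.73-fold in trametinib (log2 0.79 ± 0.025, adjusted p = 2.13e-31). With vemurafenib CD44 rose by log2 0.08 ± 0.025, adjusted p = 0.00592 in guide 2 cells and by 0.48 ± 0.025, adjusted p = 2.63e-22 in guide 1 cells. With trametinib it fell in guide 2 cells (log2 -0.28 ± 0.025, adjusted p = 4.81e-14) and rose in guide 1 cells (log2 0.17 ± 0.025, adjusted p = 2.99e-08), and the mean of both guides, -0.05 ± 0.018, describes neither. Averaged over guides, the responses of knockout and control cells differed by log2 -0.65 ± 0.03, adjusted p = 2.26e-23 in vemurafenib and -0.85 ± 0.03, adjusted p = 7.78e-28 in trametinib.

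Against control cells CD44 was lower in knockout cells in every treatment. The fall was 1.25-fold in DMSO (log2 -0.32 ± 0.021, adjusted p = 4.23e-18), 1.96-fold in vemurafenib (log2 -0.97 ± 0.021, adjusted p = 1.07e-37) and 2.25-fold in trametinib (log2 -1.17 ± 0.021, adjusted p = 5.51e-41). Guide 2 was below guide 1 in all 3 treatments, by log2 -0.28 ± 0.025 in DMSO, -0.68 ± 0.025 in vemurafenib and -0.74 ± 0.025 in trametinib. Counts per gene do not separate the spliced forms of CD44.

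HAPLN1, which locks proteoglycans to the hyaluronan chain, spans chr5:83637805-83721613 on the minus strand. Control cells had 53.0, 48.8 and 55.4 CPM in vemurafenib and 24.1, 24.3 and 23.5 CPM in trametinib, against 291, 284 and 295 CPM in DMSO. Guide 2 cells had 17.6, 16.6 and 18.7 CPM in vemurafenib and 13.2, 12.0 and 11.9 CPM in trametinib, against 31.5, 31.4 and 30.4 CPM in DMSO. Guide 1 cells had 23.9, 25.5 and 22.9 CPM in vemurafenib and 13.4, 14.0 and 13.3 CPM in trametinib, against 56.7, 55.3 and 56.7 CPM in DMSO. In each population DMSO libraries were highest and trametinib libraries lowest, with no overlap. The fall in control cells was 5.53-fold in vemurafenib (log2 -2.47 ± 0.041, adjusted p = 1.43e-42) and 12.1-fold in trametinib (log2 -3.6 ± 0.044, adjusted p = 3.28e-48). In knockout cells it was 2.03-fold in vemurafenib (log2 -1.02 ± 0.032, adjusted p = 2.05e-31) and 3.23-fold in trametinib (log2 -1.69 ± 0.033, adjusted p = 6.13e-40).

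As a description of the gene chosen for it, HAPLN1 in knockout cells was 6.93-fold lower than in control cells in DMSO, 2.54-fold lower in vemurafenib and 1.85-fold lower in trametinib. In DMSO the fall was 9.32-fold with guide 2 and 5.15-fold with guide 1. The guides themselves differed, which the choice did not use: guide 2 was below guide 1 by log2 -0.85 ± 0.043, adjusted p = 2.99e-21 in DMSO and -0.45 ± 0.047, adjusted p = 9.53e-11 in vemurafenib. In trametinib that difference was -0.14 ± 0.051, adjusted p = 0.0446, with adjusted p-values between 0.013 and 0.21 when single libraries were left out. It did not hold without replicates 1, 2 or 3 of control cells in DMSO, replicate 3 of guide 1 cells in DMSO, replicates 1, 2 or 3 of guide 1 cells in trametinib, replicate 1 of guide 1 cells in vemurafenib, replicate 1 of guide 2 cells in DMSO or replicates 2 or 3 of guide 2 cells in trametinib.

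VCAN encodes versican, the large proteoglycan that HAPLN1 can link to hyaluronan, and lies 55501 bases from HAPLN1 on chromosome 5, at chr5:83471465-83582303 on the plus strand. In control cells there were 4.44, 4.04 and 3.95 CPM in vemurafenib and 2.19, 2.47 and 2.36 CPM in trametinib, against 6.22, 6.8 and 7.28 CPM in DMSO. With guide 2 there were 4.64, 5.13 and 5.2 CPM in vemurafenib and 2.89, 2.6 and 2.56 CPM in trametinib, against 11.3, 10.4 and 10.1 CPM in DMSO. With guide 1 there were 5.84, 5.36 and 5.72 CPM in vemurafenib and 2.74, 2.9 and 2.91 CPM in trametinib, against 9.68, 9.72 and 10.7 CPM in DMSO. As for HAPLN1, trametinib libraries were lowest and DMSO libraries highest in each population, with no overlap. The fall was log2 -0.71 ± 0.086, adjusted p = 6.1e-10 in vemurafenib and -1.53 ± 0.092, adjusted p = 4.78e-20 in trametinib in control cells. In knockout cells it was log2 -0.96 ± 0.058, adjusted p = 4.94e-20 in vemurafenib and -1.9 ± 0.062, adjusted p = 8.2e-31 in trametinib.

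Unlike HAPLN1, its neighbour, VCAN was higher in knockout than in control cells, by log2 0.61 ± 0.071, adjusted p = 2.58e-10 in DMSO, 0.35 ± 0.077, adjusted p = 9.42e-05 in vemurafenib and 0.24 ± 0.087, adjusted p = 0.0165 in trametinib. The trametinib call failed when replicate 1 of the control trametinib group was dropped (adjusted p = 0.11), and by guide it was made with guide 1 (log2 0.29 ± 0.098, adjusted p = 0.0133) and not with guide 2 (log2 0.2 ± 0.1, adjusted p = 0.0999). The guides did not pass the test against each other, with intervals of -0.07 to 0.24 in DMSO, -0.35 to -0.01 in vemurafenib (adjusted p = 0.18) and -0.28 to 0.1 in trametinib.

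**Figure D4:**
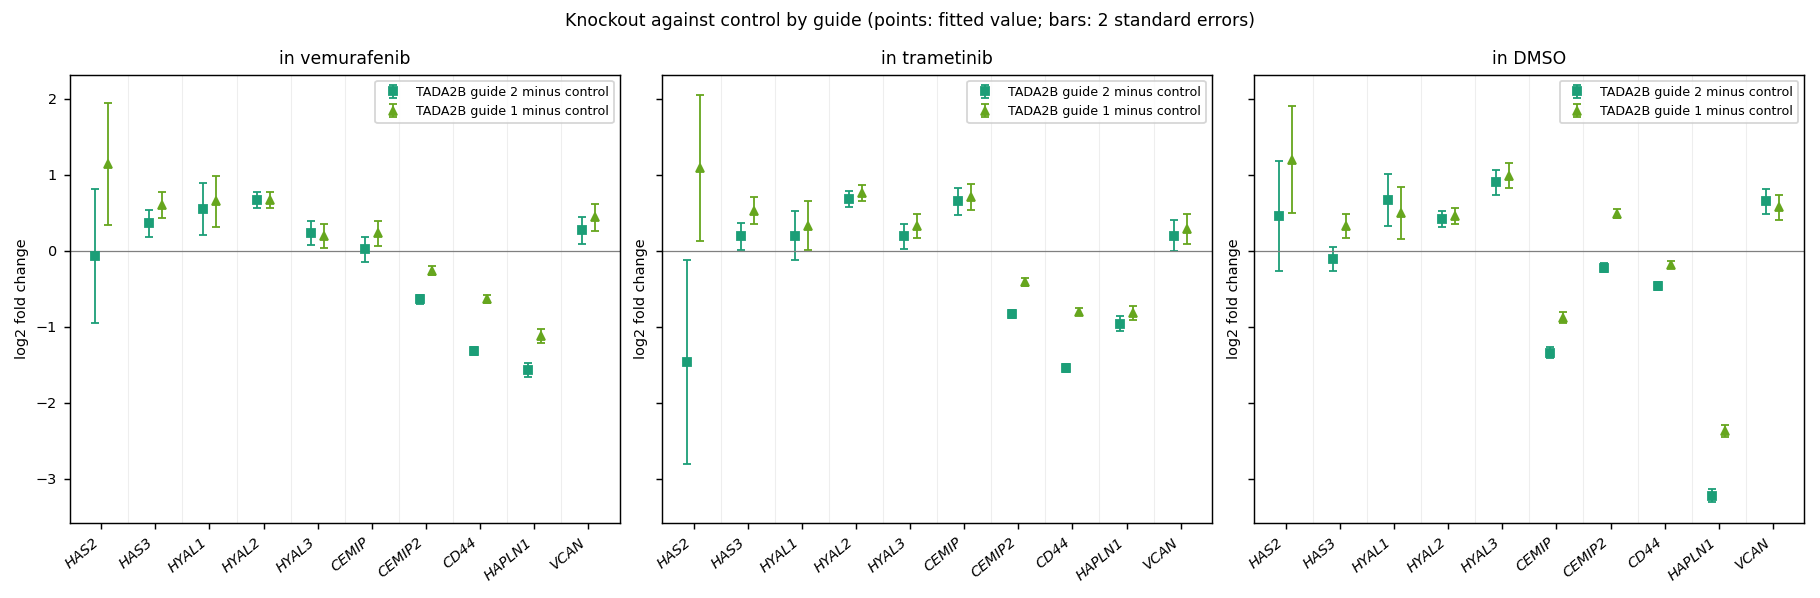
Fitted log2 fold change of each TADA2B guide against control cells for every gene, by treatment; points are fitted values and bars 2 standard errors. In DMSO, CEMIP2 lies at -0.22 with guide 2 and 0.49 with guide 1, on either side of 0.

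Drug responses that differed between knockout and control cells were counted for each drug. In vemurafenib 8 of the 10 members were called, 4 higher and 4 lower, where 42.5% of all genes were called. In trametinib 8 of the 10 were called, 4 higher and 4 lower, where 43.9% of all genes were called. CEMIP and HAPLN1, which chose the group, are in each count among the higher ones and are described without a test. Of the 8 other members, 2 were called higher, 4 lower and 2 not, in either drug. HAS3 and HYAL2 are the higher ones of these, and HYAL3, CEMIP2, CD44 and VCAN the lower ones. For VCAN the difference was log2 -0.26 ± 0.1, adjusted p = 0.0431 in vemurafenib, and -0.37 ± 0.11, adjusted p = 0.00576 in trametinib. The vemurafenib call had adjusted p-values between 0.022 and 0.16 when single libraries were left out, and failed without replicates 1 or 2 of control cells in DMSO, replicate 1 of control cells in vemurafenib, replicate 3 of guide 1 cells in DMSO, replicate 2 of guide 1 cells in vemurafenib, replicate 1 of guide 2 cells in DMSO or replicate 1 of guide 2 cells in vemurafenib. With guide 1 alone, neither the HAS3 nor the VCAN difference was called in either drug. HAS2 and HYAL1 were not called in either drug, and the intervals for HAS2 were wide, at -1.28 to 0.69 in vemurafenib and -2.21 to 0.18 in trametinib.

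Where vemurafenib and trametinib, at the single dose used of each, left different levels, the vemurafenib level was the higher one. In control cells 4 of the 10 members were called, all higher in vemurafenib, where 16.3% of all genes were called and 8.78% were called as higher. They were HAPLN1 (log2 1.13 ± 0.044, adjusted p = 9.5e-26), VCAN (log2 0.82 ± 0.096, adjusted p = 2.02e-09), CEMIP and CD44 (log2 0.14 ± 0.025, adjusted p = 2.33e-05). In knockout cells 6 were called, all higher in vemurafenib, where 19.2% of all genes were called and 10.9% were called as higher. They were HAS2 (log2 1.72 ± 0.36, adjusted p = 0.000209), VCAN (log2 0.94 ± 0.064, adjusted p = 1.12e-16), HAPLN1 (log2 0.67 ± 0.035, adjusted p = 3.63e-21), CD44 (log2 0.33 ± 0.018, adjusted p = 7.54e-21), CEMIP2 (log2 0.2 ± 0.02, adjusted p = 2.59e-11) and HAS3 (log2 0.19 ± 0.06, adjusted p = 0.0162). The HAS2 call was lost with guide 1 alone, and vemurafenib and trametinib libraries of knockout cells overlapped. Guide 2 cells had only 3, 2 and 3 HAS2 counts in trametinib. The HAS3 call failed without replicate 1 of guide 1 cells in trametinib, replicate 2 of guide 1 cells in vemurafenib or replicate 2 of guide 2 cells in vemurafenib, with an adjusted p of up to 0.082, and was not made with either guide alone. Only one dose of each drug was measured, and DUSP6 was also higher in vemurafenib than in trametinib, as given above.

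Between the knockout populations, guide 2 was the lower one wherever a member was called. In DMSO 5 of the 10 members were called lower, where 11.9% of all genes were called and 7.29% were called as lower. In vemurafenib 5 were called lower, where 16.0% of all genes were called and 8.85% were called as lower. In trametinib 5 were called lower, where 19.7% of all genes were called and 8.91% were called as lower. HAS3, CEMIP2, CD44 and HAPLN1 were among the 5 in all 3 treatments, with CEMIP in DMSO and HAS2 in either drug. The HAS3 call in vemurafenib had adjusted p-values between 0.04 and 0.31 when single libraries were left out, and failed without replicate 2 of control cells in DMSO, replicate 3 of guide 1 cells in DMSO, replicates 2 or 3 of guide 1 cells in vemurafenib, replicate 3 of guide 2 cells in DMSO, replicates 2 or 3 of guide 2 cells in trametinib or replicates 1 or 3 of guide 2 cells in vemurafenib. The count of 5 in vemurafenib was 3 without replicate 3 of guide 1 cells or replicate 1 or 3 of guide 2 cells in vemurafenib. The summed melanocyte markers also were lower with guide 2, at 364 to 381 CPM, than with guide 1, at 579 to 594 CPM, in DMSO, and their part in this was not tested.

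Genes that supply or use the same chain were read from lists chosen with earlier results of these data known. Of 8 genes of precursor supply, vemurafenib lowered 7 and raised 1 in control cells (67.3% of all genes called), and trametinib lowered 5 and raised 2 (69.0% of all genes called). Their median log2 fold change was -0.56 in vemurafenib and -0.6 in trametinib, against 0.06 for all genes. UAP1, which makes the N-acetylglucosamine donor of the synthases, fell 2.78-fold in vemurafenib (log2 -1.48 ± 0.032, adjusted p = 9.17e-38) and 3.18-fold in trametinib (log2 -1.67 ± 0.033, adjusted p = 6.32e-40). UGDH, which makes the glucuronic acid donor, rose slightly, by log2 0.24 ± 0.034 in vemurafenib and 0.14 ± 0.034 in trametinib. Knockout in DMSO lowered 4 of the 8, HK2 the most (log2 -1.26 ± 0.027, adjusted p = 1.14e-37), and raised 2, where 57.9% of all genes were called.

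Of 16 other hyaluronan receptors and binding proteins 11 were tested, and in control cells vemurafenib lowered 4 and raised 3, where 67.3% of all genes were called, while trametinib lowered 5 and raised 1, where 69.0% were called. TLR4, a receptor of innate immunity reported to answer hyaluronan fragments, averaged 20.1 ± 0.308 CPM in vemurafenib and 12.7 ± 0.227 CPM in trametinib, against 134 ± 0.475 CPM in DMSO in control cells (log2 -2.74 ± 0.04, adjusted p = 3.3e-45 in vemurafenib, and -3.4 ± 0.042, adjusted p = 2.63e-48 in trametinib). HMMR, a hyaluronan receptor that also serves the mitotic spindle, averaged 16.2 ± 0.377 CPM in vemurafenib and 15.4 ± 0.525 CPM in trametinib, against 107 ± 3.87 CPM in DMSO. ITIH5, whose relatives are coupled to hyaluronan, averaged 1.87 ± 0.297 CPM in vemurafenib and 1.82 ± 0.104 CPM in trametinib, against 17.0 ± 0.383 CPM in DMSO, and knockout in DMSO lowered it as well (log2 -2.65 ± 0.12, adjusted p = 3.9e-22).

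Among the other lecticans and link proteins, 5 of 6 were tested. Vemurafenib raised 2 in control cells and lowered 0 (67.3% of all genes called), trametinib raised 3 and lowered 1 (69.0%), and knockout in DMSO raised 1 and lowered 2 (57.9%). ACAN, the aggrecan gene, averaged 37.7 ± 2.31 CPM in vemurafenib and 39.7 ± 3.13 CPM in trametinib, against 8.63 ± 0.496 CPM in DMSO in control cells, with drug higher than DMSO (log2 2.13 ± 0.075, adjusted p = 1.53e-28 in vemurafenib and 2.2 ± 0.075, adjusted p = 3.33e-29 in trametinib), while VCAN fell. Knockout lowered ACAN in DMSO to 1.53 ± 0.238 CPM with guide 2 and 2.53 ± 0.485 CPM with guide 1, against that control level (log2 -2.13 ± 0.083, adjusted p = 2.29e-26), a fall where VCAN rose. Of the 6 proteases of the ADAMTS family that can cut versican, vemurafenib raised 2 and lowered 3 (67.3% of all genes called) and trametinib raised 3 and lowered 3 (69.0%) in control cells. ADAMTS15 rose the most of them, to 83.9 ± 2.98 CPM in vemurafenib and 113 ± 1.69 CPM in trametinib, against 5.67 ± 0.0979 CPM in DMSO.

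Of 9 genes that shed CD44, link it to actin or splice it, vemurafenib raised 5 and lowered 3 in control cells (67.3% of all genes called) and trametinib raised 4 and lowered 4 (69.0%). ESRP1, which promotes inclusion of the variable exons of CD44, averaged 8.91 ± 0.264 CPM in vemurafenib and 9.56 ± 0.608 CPM in trametinib, against 0.376 ± 0.0569 CPM in DMSO in control cells. RDX, a linker of CD44 to actin, rose with trametinib (log2 0.84 ± 0.03, adjusted p = 2.92e-29) while MSN, another linker, fell (log2 -1.01 ± 0.029, adjusted p = 5.76e-33). Of the 3 other genes of the synthase and hyaluronidase families HAS1 and HYAL4 were tested, and neither averaged more than 0.452 CPM in any group. The action of HYAL4 on hyaluronan was not measured. HAS1, the remaining synthase, averaged 0.164 ± 0.0421 CPM in vemurafenib and 0.147 ± 0.0375 CPM in trametinib, against 0.0268 ± 0.0233 CPM in DMSO in control cells. It was called higher with either drug (intervals of the log2 value 1.2 to 3.82 in vemurafenib and 1.04 to 3.68 in trametinib). HAS2 and HAS3 went the other way, but the direction of HAS1 rests on very few reads. HYAL4 was called lower with trametinib in control cells (interval -5.55 to -1.01) and not called with vemurafenib (interval -3.38 to 0.22). In DMSO both were called higher in knockout cells, with intervals of 1.49 to 3.86 for HAS1 and 1.49 to 3.7 for HYAL4. All 3 lysosomal exoglycosidases, which finish the chain's breakdown, were tested. In control cells vemurafenib raised 2 and lowered 0 (67.3% of all genes called), and trametinib raised 2 and lowered 1 (69.0%). HEXA rose the most (log2 0.87 ± 0.039 in vemurafenib and 0.82 ± 0.039 in trametinib), and the gene lowered by trametinib was GUSB (log2 -0.09 ± 0.04, adjusted p = 0.0467).

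The genes most like CEMIP and HAPLN1 across the 27 libraries were read off by Pearson r of log2 CPM over 12149 protein-coding genes averaging at least 1 on that scale. For CEMIP they were SLC20A1, AEN, RRP12, CCDC86 and PXYLP1, each with an r of 0.996. For HAPLN1 they were ITGA9 (0.983), SORD (0.981), LAPTM4B, POU3F2 and TMEM183A (each 0.973). The 27 libraries are 9 groups of 3, so the points of a group share its mean.

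Reads shared between genes could touch some of these counts. The longest identical stretch between exons of related members was 14 bases for CEMIP and CEMIP2 and 18 bases for HAS2 and HAS3. CEMIP overlaps MESD by 224 exonic bases, HAS2 overlaps HAS2-AS1 by 201, HAS3 overlaps CHTF8 by 365 and VCAN overlaps VCAN-AS1 by 453, all on the opposite strand. The strand setting of the counting is not given in the sources used here. HAS2-AS1 was itself called lower in control cells with vemurafenib (log2 -2.18 ± 0.99, adjusted p = 0.0486) and trametinib (log2 -2.72 ± 1.1, adjusted p = 0.021). Its drug and DMSO libraries overlapped, and any share in the HAS2 counts was not tested. MESD itself changed far less than CEMIP with drug, at log2 -0.49 ± 0.035 in vemurafenib and -0.5 ± 0.035 in trametinib in control cells.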

How the data were processed

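The authors deposited one table of read counts per gene for 27 libraries, which is used as deposited. RNA was taken up with a QIAGEN RNeasy kit and libraries made with a stranded KAPA mRNA kit, per the labels' protocols. bcl2fastq, HISAT2, HTSeq and the build hg38 are listed in the submitters' processing notes; the sources used here do not give the annotation release or the strand setting of the counting. All 58721 identifiers matched GENCODE 29, which gave coordinates and exon lengths.

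Genes were filtered with filterByExpr (25199 kept), scaled by TMM (factors 0.866 to 1.09) and fitted in edgeR 4.0.16 (R 4.3.3) with robust quasi-likelihood over 9 group means, with 18 residual degrees of freedom. Knockout is the mean of both guides. CPM is the count divided by the scaled library total. Intervals span 2 standard errors on either side. The biological coefficient of variation was 4.02%, and replicate libraries differed by more than counting noise (chi-square per degree of freedom 2.94 to 12). On simulated data for trametinib in control cells, over 25199 genes, 33, 45, 50 and 50 of 50 genes were recovered at 1.2, 1.5, 2 and 8-fold, with 15 false calls. The changed genes were drawn from those averaging at least 1 CPM, so recovery was not measured for genes as low as HAS2. Far fewer genes were changed than in the data, where 69.0% were called for this contrast.

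The members and lists were chosen with earlier results of these data known. All 10 members are named; from each other list, at most the 4 called genes with the largest change per comparison, and members of counts of 5 or fewer; TADA2B, DUSP6 and SPRY4 are named as checks. UGDH, HEXA, MSN, RDX, NAA80, IFRD2, TUSC2, MESD, HAS2-AS1, HAS1, HYAL4 and the markers with values or calls were named after their values were seen. Alternatives were DESeq2 1.42.0 (size factors, Wald test), limma 3.58.1 (voom), no filter, a replicate block, the compared groups alone, leaving out each library and, added after seeing the data, each guide alone.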

Additional observations from a re-analysis of the deposited data

Results flagged for a closer look

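Several members responded to a drug differently in knockout and control cells, or with one guide and the other, by a test of that difference in the fit over all genes; each value here is a difference of log2 fold changes, and CEMIP and HAPLN1 are left out where their choice used the contrast. For knockout minus control, HAS3 differed by 0.37 in vemurafenib and 0.25 in trametinib, and HYAL2 by 0.23 in vemurafenib and 0.28 in trametinib. HYAL3 differed by -0.73 in vemurafenib and -0.68 in trametinib, and its drug response had opposite signs in the populations. CEMIP2 differed by -0.58 in vemurafenib and -0.76 in trametinib, CD44 by -0.65 in vemurafenib and -0.85 in trametinib, and VCAN by -0.26 in vemurafenib and -0.37 in trametinib. The HAS3 and VCAN differences were not called with guide 1 alone in either drug.

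For guide 2 minus guide 1, CEMIP2 differed by 0.34 in vemurafenib and 0.30 in trametinib, so that its fall with drug was smaller with guide 2. CD44 differed by -0.40 in vemurafenib and -0.46 in trametinib, where it fell with guide 2 and rose with guide 1. HAPLN1 differed by 0.40 in vemurafenib and 0.71 in trametinib.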

How the results depend on the processing

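Of the 14 counts of members called, all were within 1.5 times of the reported count under DESeq2 size factors, the DESeq2 Wald test, limma voom and no filter on low counts. With only the groups compared in the fit, 3 members were called for guide 2 against guide 1 in trametinib. Leaving out one library at a time gave 3 to 6 members called for guide 2 against guide 1 in vemurafenib and 4 to 5 in trametinib. The labels give no shared batch for a replicate number. Correlations of deviations between same-numbered libraries ran from -0.05 to 0.04. They were taken over all genes tested, those with few counts included, so they cannot show that pairing was absent. The fit with a replicate block kept all 14 counts and all 140 member values on their side of the threshold. With guide 1 alone the log2 fold change turned round for HYAL1 (0.076) and CD44 (0.174) with trametinib in knockout cells and for HAS2 under knockout in trametinib (1.087). With guide 2 alone it turned round for HYAL1 with vemurafenib in knockout cells (-0.066), CEMIP between the drugs in knockout cells (-0.032), HAS3 (-0.109) and CEMIP2 (-0.223) under knockout in DMSO, HAS2 under knockout in vemurafenib (-0.070) and the HYAL1 difference in vemurafenib response (-0.129). Among the 140 member values, other calls were lost without a change of sign: 7 with guide 1 alone (HYAL2 with vemurafenib in knockout cells, HAS2 and HAS3 between the drugs in knockout cells, and HAS3 and VCAN for the difference in response to either drug) and 4 with guide 2 alone (HAS3 between the drugs, HAS2 under knockout in DMSO, and HAS3 and VCAN under knockout in trametinib). Another 4 were lost with limma voom (HAS2 and HYAL2 with vemurafenib in control cells, HAPLN1 between guides in trametinib and HAS3 between guides in vemurafenib) and 4 with no filter (HYAL2 with vemurafenib in control cells, HAS3 for the trametinib difference, VCAN for the vemurafenib difference and HAS3 between guides in vemurafenib). With only the groups compared 2 were lost (HAPLN1 between guides in trametinib and HAS3 between guides in vemurafenib), and with DESeq2 size factors or the DESeq2 Wald test 1 each (VCAN for the vemurafenib difference). With limma voom HAS2 under knockout in trametinib was 0.040. Leaving out single libraries turned the sign of uncalled values only: HYAL1 with vemurafenib in control cells ranged from -0.01 to 0.108, and vemurafenib against trametinib in control cells from -0.355 to 0.016 for HYAL1 and -0.048 to 0.019 for HYAL2. In knockout cells that contrast ranged from -0.018 to 0.104 for CEMIP. HAS2 ranged from -0.591 to 0.399 under knockout in trametinib and from -0.581 to 0.055 for the difference in vemurafenib response, HYAL1 from -0.045 to 0.078 for the same difference. Guide 2 against guide 1 ranged from -0.168 to 0.077 for CEMIP in trametinib, and in vemurafenib from -0.217 to 0.004 for HYAL1, -0.055 to 0.063 for HYAL2 and -0.056 to 0.088 for HYAL3. The cause of these changes was not tested. Depth limits HAS2 most, with 2 to 81 counts per library.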
